A study of Homo sapiens with 6 samples.

Results

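Genes of the SLC25 family, selected as symbols beginning with SLC25A and without SLC25A32, were compared between 2 lines of prostate epithelial cells. The rule took probe sets annotated with exactly 1 such symbol and, where a gene had more than 1, the probe set of highest mean over the 6 arrays. It gave 48 of the 18404 genes measured. Of these 48, 45 are protein coding, and the others are the antisense transcript SLC25A5-AS1 and the pseudogenes SLC25A51P1 and SLC25A51P4. The cells were PrEC, an immortalized line of normal prostate epithelium, kept in the growth medium for such cells and harvested 48 hours after they were plated, with no drug added. In the first group of 3 samples the hairpin is named shNT, and in the second group of 3 it targets PKCλ/ι and is called shPKCi below. Each group rests on 1 named hairpin, and whether a line is 1 clone was not given in the sources used here. The series text calls the 3 samples of each line biological replicates. Precision is limited by there being 3 arrays a group, and intensities of a group are always given in the order of replicates 1, 2 and 3.

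SLC25 carriers are proteins of the inner mitochondrial membrane built from repeats of a fold with a pair of membrane helices each. They exchange nucleotides, amino acids, carboxylates, phosphate and cofactors between the cytosol and the matrix. Through them mitochondria receive ADP and phosphate and release ATP, and the malate-aspartate shuttle and citrate export run through them. They are made in the cytosol and enter the membrane through the TOM complex, the small TIM chaperones and the TIM22 complex. One member, SLC25A17, lies in the peroxisomal membrane.

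The hairpin's target was lower in every shPKCi array. PRKCI, which encodes PKCλ/ι, had intensities of 1635, 1428 and 1843 with shNT and 800.3, 810.2 and 754 with shPKCi, on the linear scale of the deposited values (adjusted p = 0.000279, limma). The array of shNT replicate 2 stood apart from the others. Over all genes it correlated with each other array at 0.974 to 0.989, while the other 5 correlated with one another at 0.982 to 0.996. Its median intensity over all probe sets was 48.6, against 44.9 to 45.7 in the others. The interquartile range of its log2 values over all genes was 2.81, against 2.98 to 3.01, and the cause was not tested. All 7 measured markers of basal prostate epithelium lay above the median signal, and the 4 measured luminal markers lay below it. The summed signal of 8 mesenchymal markers was 9.42 to 9.50 log2 units in shNT and 8.54 to 8.63 in shPKCi, with ACTA2 and COL1A1 lower. The sum was taken on linear intensities. ACTA2, the brightest of them in shNT, had 329, 295 and 370 with shNT and 76.3, 68.6 and 79.1 with shPKCi. Beyond ACTA2 and COL1A1 none of the 8 markers passed. Their signals ran from percentile 1.81 for LUM to 69.7 for ACTA2, with a median of 41.5 and 2 of 8 above the median gene. The basal markers summed to 13.40 to 13.52 in shNT and 13.27 to 13.30 in shPKCi, with KRT14, ITGB4 and CDH3 lower. KRT5, DST, ITGA6 and LAMB3 did not pass, with log2 differences of -0.27, -0.18, 0.058 and 0.25. The groups of LAMB3, which went up, did not overlap. The luminal markers summed to 6.95 to 7.38 and 6.61 to 6.76, with ACP3 lower. Of 8 endothelial and blood markers CD3D was higher and KDR lower, both at low signal, and of 5 adipose or muscle markers none passed. The former list summed to 8.64 to 8.75 in shNT and 8.51 to 8.56 in shPKCi. Its brightest marker, CD68 (percentile 78.9), was lower without overlap and did not pass (log2 difference -0.22). The adipose or muscle markers summed to 7.12 to 7.41 and 7.04 to 7.14. The part of these shifts in the carrier results was not tested. In bulk RNA, fewer cells of a type and less RNA per cell cannot be told apart.

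The carriers moved in both directions, and about as often as other genes. At an adjusted p under 0.05 (limma, Benjamini-Hochberg over all 18404 genes), 5 of the 48 members were higher in shPKCi, 3 were lower and 40 did not pass. That is 16.7% of the members, where 18.5% of all genes passed (9.55% higher and 8.95% lower). The higher members were SLC25A13, SLC25A44, SLC25A15, SLC25A33 and SLC25A17, and the lower ones were SLC25A27, SLC25A23 and SLC25A36. The median log2 difference of the members was 0.059, against -0.016 over all genes, and their differences ran from -1.13 to 0.78. The 3 values of one line did not overlap those of the other in 19 of 48 members, or 39.6%, where 35.7% of all genes did not overlap. Members brighter than the median gene numbered 29, of which 7 passed (24.1%, against 29.9% of all genes above the median). Of the 19 dimmer members 1 passed (5.26%, against 7.15% of all genes at or below the median).

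The calls of SLC25A13, SLC25A44 and SLC25A27 held in each of the 6 fits that left out 1 array, and each of the other 5 missed the threshold in at least 1 of them. Over those fits the differences of all 8 kept their direction. The log2 difference of SLC25A15 was 0.38 to 0.66, that of SLC25A33 0.31 to 0.53 and that of SLC25A17 0.33 to 0.45. It was -0.42 to -0.33 for SLC25A23 and -0.38 to -0.30 for SLC25A36. The numbers higher and lower were 3 and 2 when shNT replicate 1 was left out, 3 and 3 for shNT replicate 2, and 4 and 1 for shNT replicate 3. They were 3 and 1 when shPKCi replicate 1 was left out, 2 and 1 for shPKCi replicate 2, and 3 and 1 for shPKCi replicate 3. Calls over all genes moved too, from 18.5% with all arrays to 14.9%, 21.2% and 14.4% without shNT replicates 1, 2 and 3 in turn. They were 11.6%, 11.1% and 12.8% without shPKCi replicates 1, 2 and 3. After centring of the arrays on their medians, 7 members were higher and 2 lower, and of all genes 11.8% were higher and 7.18% lower.

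**Figure D1:**
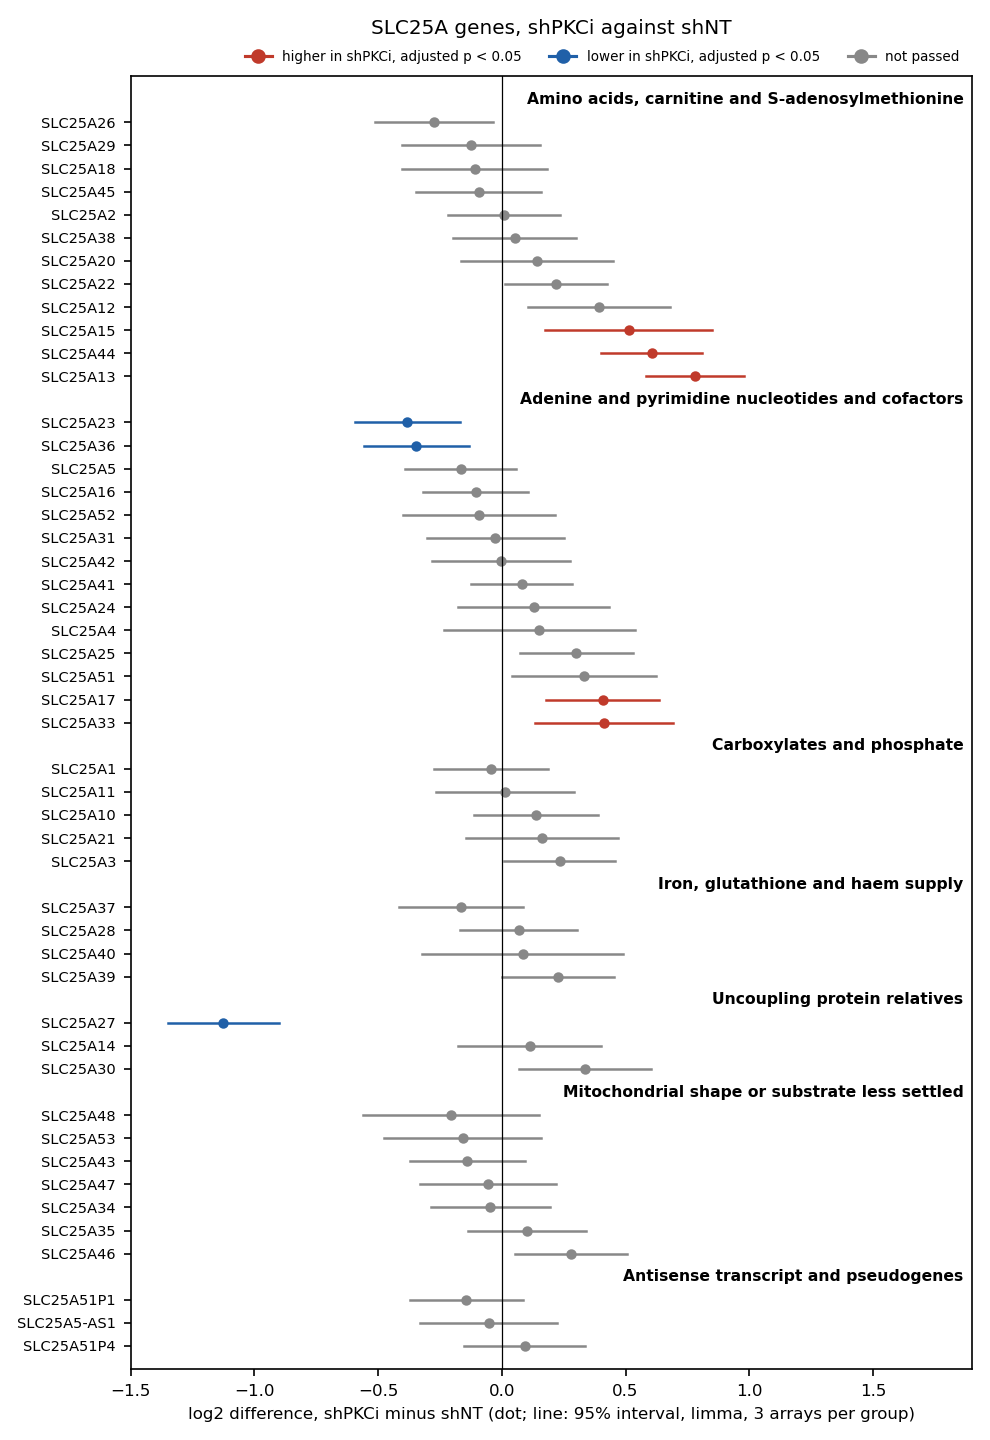
Log2 difference between shPKCi and shNT (x axis) for each of the 48 genes, grouped by substrate; dots are limma estimates from 3 arrays per group and lines are 95% intervals. Red marks the 5 genes higher and blue the 3 genes lower at an adjusted p under 0.05; SLC25A27 lies farthest to the left at -1.13 and SLC25A13 farthest to the right at 0.78.

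The DNA just before the start of 5 carriers is shown because these are the 3 whose calls held in every such fit and the 2 pyrimidine nucleotide carriers, which moved in opposite directions. Each run is the 250 bases before the annotated start, 5′ to 3′ on the gene's strand, from RefSeq on GRCh38.p14. The windows are chr7:96322099-96322348 (minus strand) for SLC25A13, chr1:156193854-156194103 (plus strand) for SLC25A44 and chr6:46652725-46652974 (plus strand) for SLC25A27. Those of the pyrimidine nucleotide carriers are chr1:9539215-9539464 (plus strand) for SLC25A33 and chr3:140941586-140941835 (plus strand) for SLC25A36. Capitals mark letters that match any of 7 motifs on either strand. These are CACGTG (the E-box), ACGTG (a core of the hypoxia response element, which the E-box also holds), GCGTG (the other core of that element), TGATGCAA (an amino acid response element), CCGGAAG (a site of ETS factors), TGACGTCA (the cyclic AMP response element) and the palindromic NRF1 motif. A match on the other strand appears as its reverse complement, such as CACGC.
SLC25A13: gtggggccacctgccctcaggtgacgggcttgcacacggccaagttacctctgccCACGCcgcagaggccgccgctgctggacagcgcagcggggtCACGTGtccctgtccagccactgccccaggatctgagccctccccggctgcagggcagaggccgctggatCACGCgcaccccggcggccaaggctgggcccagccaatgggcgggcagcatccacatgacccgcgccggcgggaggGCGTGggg
SLC25A44: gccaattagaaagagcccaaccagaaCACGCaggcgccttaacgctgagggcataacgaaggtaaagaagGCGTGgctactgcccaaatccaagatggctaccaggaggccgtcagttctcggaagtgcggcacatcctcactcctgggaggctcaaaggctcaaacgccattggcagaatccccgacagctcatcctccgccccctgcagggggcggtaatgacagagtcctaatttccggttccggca
SLC25A27: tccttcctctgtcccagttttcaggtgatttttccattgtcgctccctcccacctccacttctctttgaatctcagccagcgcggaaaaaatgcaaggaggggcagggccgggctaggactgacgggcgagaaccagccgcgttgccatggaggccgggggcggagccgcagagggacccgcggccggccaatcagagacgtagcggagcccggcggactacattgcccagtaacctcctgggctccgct
SLC25A33: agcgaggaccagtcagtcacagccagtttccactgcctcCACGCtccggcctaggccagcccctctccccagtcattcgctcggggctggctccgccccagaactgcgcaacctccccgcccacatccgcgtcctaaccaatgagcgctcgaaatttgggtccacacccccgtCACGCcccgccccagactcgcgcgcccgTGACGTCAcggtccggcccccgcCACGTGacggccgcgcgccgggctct
SLC25A36: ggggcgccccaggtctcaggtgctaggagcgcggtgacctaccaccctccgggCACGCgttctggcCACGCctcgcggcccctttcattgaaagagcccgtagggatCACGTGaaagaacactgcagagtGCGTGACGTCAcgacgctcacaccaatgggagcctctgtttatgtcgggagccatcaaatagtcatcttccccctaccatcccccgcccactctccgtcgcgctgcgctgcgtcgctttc

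The window of SLC25A27, which fell most among the members, held none of the 7 motifs, and that of SLC25A44 held GCGTG alone. CACGTG stood in the windows of SLC25A13, SLC25A33 and SLC25A36, of which the first 2 rose and the last fell. It began 154, 26 and 143 bases before the start, in that order. TGACGTCA stood in those of SLC25A33 and SLC25A36 alone among the 8 members that passed, beginning 49 and 117 bases before the start. The windows of SLC25A15 and SLC25A23, not printed, held GCGTG, the former with ACGTG as well, and that of SLC25A17 held CCGGAAG 48 bases before the start. RefSeq windows were matched for 40 of the 48 members, 52 windows in all. CACGTG was present in 15.4% of these windows and in 6.35% of 34961 windows of all genes, or 7.37% of those of coding genes. The shares were 26.9% and 18.5% for ACGTG, 71.2% and 32.2% for GCGTG (38.2% for coding genes), 21.2% and 8.52% for CCGGAAG, and 5.77% and 1.65% for TGACGTCA. They were 7.69% and 5.09% for the NRF1 motif, and TGATGCAA was in 0 windows of the members and 0.769% of all. Base composition differed too, with a median G and C content of 65.8% in the members' windows and 58.4% in all windows (62.0% for coding genes). Windows of 1 gene with several starts can overlap, and the presence of these letters is not evidence of binding.

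Carriers of amino acids, carnitine and S-adenosylmethionine included SLC25A13, the largest rise of the family by the brightest probe set of each gene. Of 12 members 3 rose and 0 fell, with a median log2 difference of 0.097. That is 25% passing, where 18.5% of all genes passed (9.55% higher and 8.95% lower). Above the median signal lay 8 of the 12, and 29.9% of all genes above it passed. SLC25A13 encodes citrin, which moves aspartate out of mitochondria in exchange for glutamate as a step of the malate-aspartate shuttle. Its intensities were 418, 417 and 413 with shNT and 697, 718 and 732 with shPKCi. The highest shNT value lay far below the lowest shPKCi value, and both groups were tight. The mean log2 signal of SLC25A13 was 8.70 ± 0.0092 with shNT and 9.48 ± 0.036 with shPKCi (SD, n = 3), a 1.72-fold rise (log2 0.78, SE 0.088, adjusted p = 0.000352). The adjusted p was 0.000469 to 0.00361 in fits without 1 array.

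SLC25A44, a carrier linked to the uptake of branched-chain amino acids, was the next largest rise on that basis. The order depends on the choice of probe set, since the second probe set of SLC25A33 rose more than either. SLC25A44 had intensities of 97.1, 91.6 and 100.002 with shNT and 148, 142 and 148 with shPKCi. The groups were apart by more than their own spread, and the rise was 1.52-fold (log2 0.61, SE 0.091, adjusted p = 0.00171). SLC25A15, which exchanges ornithine and citrulline as part of the urea cycle and of ornithine supply, had 183, 125 and 147 with shNT and 240.3, 215 and 188 with shPKCi. Here the highest shNT array came close to the lowest shPKCi array without overlap, and shNT replicate 2 was the lowest of all. SLC25A15 rose by 0.51 log2 units (SE 0.15, adjusted p = 0.042). It missed the threshold in 4 of the 6 fits without 1 array, with an adjusted p of 0.0835 without shNT replicate 2, 0.107 without shNT replicate 3, 0.158 without shPKCi replicate 1 and 0.119 without shPKCi replicate 2.

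**Figure D2:**
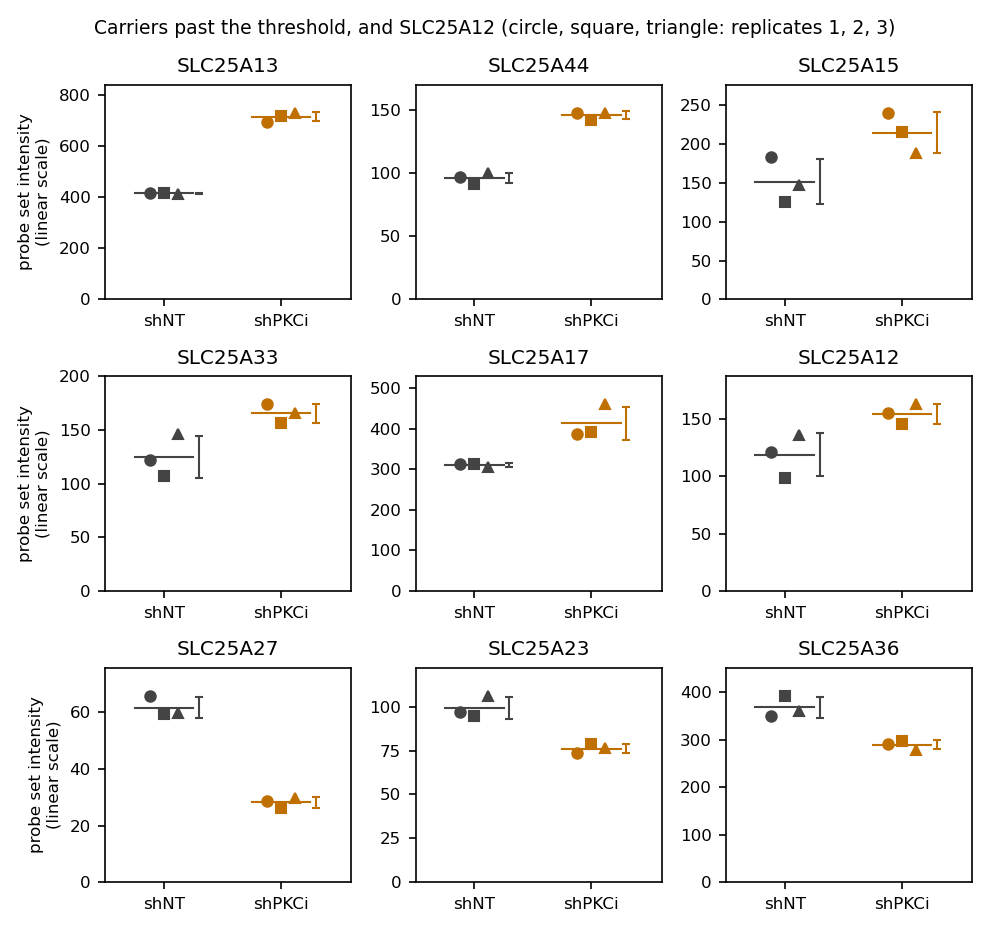
Probe set intensity on a linear axis from 0 for the 8 carriers past the threshold and SLC25A12, in each shNT (grey) and shPKCi (orange) array; lines are group means and bars are SD over 3 arrays. The groups do not overlap in any of the 9 panels, and the gap is narrowest relative to the spread in SLC25A15, SLC25A33 and SLC25A12.

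SLC25A12, which encodes aralar, the other aspartate-glutamate carrier, did not pass. Its intensities were 121, 98.7 and 136 with shNT and 155, 146 and 163 with shPKCi, without overlap. The log2 difference of SLC25A12 was 0.39 (95% interval 0.11 to 0.68, adjusted p = 0.062). It passed in 6 of 15 alternatives. Of the 6 fits without 1 array it passed in 1, without shNT replicate 3 (adjusted p = 0.0358). The adjusted p was 0.115 without shNT replicate 1, 0.0904 without shNT replicate 2 (log2 difference 0.27), and 0.159, 0.112 and 0.178 without shPKCi replicates 1, 2 and 3 in turn. It passed after centring of the arrays on their medians (0.0461), among genes above the median signal (0.031) or the lower quartile (0.0439) and with a trended robust variance (0.0467). It did not with cyclic loess (0.0643), array weights (0.0652) or another choice of probe sets (0.0617 and 0.0676).

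The carriers nearest to methyl-group and glycine metabolism did not pass. SLC25A26 imports S-adenosylmethionine, the methyl donor, into the matrix. Its intensities were 205, 189.7 and 184 with shNT and 153, 148 and 178 with shPKCi, so that all shPKCi arrays were below all shNT arrays. The log2 difference of SLC25A26 was -0.27 (95% interval -0.51 to -0.035, adjusted p = 0.114), and it passed as lower with array weights (adjusted p = 0.0296). SLC25A38, which imports glycine for haem synthesis, had 196, 195 and 170.3 with shNT and 181, 185 and 216 with shPKCi. These overlapped, with a log2 difference of 0.051 (95% interval -0.20 to 0.30), and the sign turned without shNT replicate 3 or shPKCi replicate 3. The glutamate carrier gene SLC25A22 had a log2 difference of 0.22 (95% interval 0.012 to 0.43, adjusted p = 0.144) with groups that did not overlap. SLC25A20, the carnitine-acylcarnitine carrier of fatty acid import, had 0.14 (95% interval -0.16 to 0.45), and its sign turned without shNT replicate 3. The ornithine carrier gene SLC25A2, the glutamate carrier gene SLC25A18, the basic amino acid carrier gene SLC25A29 and SLC25A45 lay between -0.12 and 0.0077.

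Nucleotide and cofactor carriers went both ways: of 14 members 2 rose and 2 fell, with a median of 0.038. This share was 28.6%, against 18.5% of all genes (9.55% higher and 8.95% lower). Above the median signal lay 9 of the 14, and 29.9% of all genes above it passed. SLC25A33 and SLC25A36 both move pyrimidine nucleotides into and out of mitochondria, for the synthesis of mitochondrial RNA and DNA. SLC25A33 had intensities of 122, 107 and 146 with shNT and 174, 157 and 166 with shPKCi. The groups did not overlap, and SLC25A33 rose by 0.41 log2 units (SE 0.12, adjusted p = 0.0457). SLC25A36 had intensities of 349.8, 392 and 359.6 with shNT and 289.9, 298 and 279 with shPKCi. All its shPKCi arrays were lower, and SLC25A36 fell by 0.35 (SE 0.095, adjusted p = 0.0312).

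With 3 arrays against 2, fewer genes passed in all but 1 fit, and neither call held throughout, while both differences kept their direction. SLC25A33 had an adjusted p of 0.117 without shNT replicate 1, 0.0754 without shNT replicate 2, 0.154 without shPKCi replicate 1, 0.0934 without shPKCi replicate 2 and 0.116 without shPKCi replicate 3. SLC25A36 had an adjusted p of 0.0512 without shNT replicate 1, 0.0677 without shNT replicate 3, 0.0968 without shPKCi replicate 1, 0.0886 without shPKCi replicate 2 and 0.108 without shPKCi replicate 3. With arrays centred on their medians it was 0.0589. SLC25A33 has a second, dimmer probe set (7948088) with intensities of 70.1, 73.9 and 83.3 in shNT and 165, 162 and 171 in shPKCi. That probe set was higher by 1.14 on the log2 scale (adjusted p = 0.00171 over all probe sets), so that both probe sets went the same way and differed in size. In the same limma fit of all probe sets the brighter probe set (7897460) did not pass (adjusted p = 0.125). The platform annotation gives both the same transcripts, and what else either may bind was not tested. Of the other called members, SLC25A15 (adjusted p = 0.127), SLC25A36 (0.0785), SLC25A17 (0.0642) and SLC25A23 (0.0592) also missed the threshold over all probe sets. SLC25A13, SLC25A44 and SLC25A27 passed there.

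SLC25A17, the peroxisomal carrier of coenzyme A, FAD and NAD, and SLC25A23, a calcium-regulated carrier of ATP-Mg and phosphate, also passed. SLC25A17 had intensities of 313, 313 and 306 with shNT and 386, 392 and 460.3 with shPKCi. Its shNT arrays were nearly equal and all shPKCi arrays were above them, with a rise of 0.41 log2 units (SE 0.10, adjusted p = 0.0213). SLC25A23 had 96.9, 94.4 and 106 with shNT and 73.5, 78.5 and 76.2 with shPKCi, without overlap. SLC25A23 fell by 0.38 (SE 0.095, adjusted p = 0.0208). The log2 differences of both genes kept their direction without any 1 array. For SLC25A17 the adjusted p missed the threshold at 0.0564 without shNT replicate 1, 0.0638 without shNT replicate 3, 0.0568 without shPKCi replicate 2 and 0.0845 without shPKCi replicate 3. That of SLC25A23 missed it at 0.0745 without shNT replicate 3, 0.0875 without shPKCi replicate 1, 0.0648 without shPKCi replicate 2 and 0.065 without shPKCi replicate 3.

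The ADP/ATP carriers, which hand ATP to the cytosol, did not pass. SLC25A5, the isoform of dividing cells, had intensities of 3298, 3372 and 2909 with shNT and 2841, 2721 and 2959.9 with shPKCi, with overlap and a log2 difference of -0.17 (95% interval -0.39 to 0.057). SLC25A4, the isoform of heart and muscle, had 239.9, 147 and 229.7 with shNT and 230.0, 221 and 218 with shPKCi. Its shNT replicate 2 lay far below the other 5 arrays, and the log2 difference was 0.15 (95% interval -0.23 to 0.54). SLC25A31, the testis isoform, was dim (signal percentile 9.03) and had a log2 difference of -0.026. SLC25A6 was not analysed here. SLC25A51, the NAD carrier, had intensities of 52.8, 52.4 and 59.3 with shNT and 59.4, 67.3 and 81.9 with shPKCi and a log2 difference of 0.33 (95% interval 0.043 to 0.62, adjusted p = 0.114). With the mean of its 2 probe sets SLC25A51 passed (log2 difference 0.42, adjusted p = 0.0418). The second probe set (8161249) was very dim, with intensities of 7.75, 5.78 and 6.74 with shNT and 8.03, 11.5 and 9.44 with shPKCi. By itself it had a log2 difference of 0.51 and did not pass (adjusted p = 0.133 over all probe sets). SLC25A51, SLC25A52 and the pseudogenes named after SLC25A51 are close copies whose transcripts can bind the same probes. The coenzyme A carrier genes SLC25A16 and SLC25A42, the ATP-Mg and phosphate carrier genes SLC25A24, SLC25A25 and SLC25A41, and SLC25A52 lay between -0.11 and 0.30, and none passed.

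None of the 5 carboxylate and phosphate carriers passed. SLC25A1 exports citrate, the source of cytosolic acetyl-CoA, and had intensities of 140.2, 121 and 145 with shNT and 129, 136 and 128 with shPKCi. These overlapped (log2 difference -0.045, 95% interval -0.28 to 0.19), and the sign turned with arrays centred on their medians and without shNT replicate 3. SLC25A3, which brings in the phosphate used for ATP synthesis, had 2668, 2262 and 2513 with shNT and 2831, 3014 and 2891 with shPKCi. All its shPKCi arrays were above its shNT arrays, and the log2 difference was 0.23 (95% interval 0.010 to 0.46, adjusted p = 0.149). The dicarboxylate carrier gene SLC25A10 had a log2 difference of 0.14 (95% interval -0.11 to 0.39). SLC25A11, the oxoglutarate-malate carrier of the malate-aspartate shuttle, had 0.012 (95% interval -0.27 to 0.29), with a sign that turned under cyclic loess and array weights and without shNT replicate 2 or shPKCi replicate 3. SLC25A21, the oxoadipate carrier, was dim and had 0.16 (95% interval -0.14 to 0.47).

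The 4 carriers of iron and glutathione did not pass either. The mitoferrin genes SLC25A28 and SLC25A37, which encode iron importers, had log2 differences of 0.068 (95% interval -0.17 to 0.30) and -0.16 (95% interval -0.41 to 0.085). SLC25A28 had intensities of 99.5, 114 and 97.3 with shNT and 102, 108 and 116 with shPKCi, and SLC25A37 had 252, 306 and 245 with shNT and 245, 228 and 241 with shPKCi. The highest SLC25A37 value was that of shNT replicate 2, and the groups of both genes overlapped. The second SLC25A37 probe set had a log2 difference of -0.15. The glutathione carrier genes SLC25A39 and SLC25A40 had 0.23 (95% interval -0.00018 to 0.45) and 0.084 (95% interval -0.32 to 0.49). SLC25A40 was lowest in shNT replicate 2, at 197 against 285 to 349 in the other 5 arrays.

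By the brightest probe set of each gene, the largest change in the family was the fall of SLC25A27. The second probe set of SLC25A33 changed by about as much in the other direction. This gene encodes UCP4, a relative of the uncoupling proteins that is known mainly from brain. Its intensities were 66.0, 59.4 and 59.8 with shNT and 28.8, 26.2 and 29.9 with shPKCi. Every shPKCi array lay far below the lowest shNT array. The mean log2 signal of SLC25A27 was 5.95 ± 0.084 with shNT and 4.82 ± 0.097 with shPKCi (SD, n = 3), a 2.18-fold fall (log2 -1.13, SE 0.10, adjusted p = 8.19e-05). The adjusted p was 0.000171 to 0.000902 in fits without 1 array. The probe set was dim, at the 35.8th percentile of signal, and no detection calls were used. The other relatives in this group, SLC25A14 and SLC25A30, had log2 differences of 0.11 (95% interval -0.18 to 0.40) and 0.34 (95% interval 0.068 to 0.60, adjusted p = 0.0853). SLC25A30 had intensities of 90.0, 76.6 and 93.1 with shNT and 123, 98.8 and 106 with shPKCi, without overlap.

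Members with a role in mitochondrial shape or with a less settled substrate numbered 7, and none passed. SLC25A46, a protein of the outer membrane that acts in mitochondrial division and fusion, had intensities of 556, 478 and 567 with shNT and 636, 659 and 642 with shPKCi. Its groups did not overlap, with a log2 difference of 0.28 (95% interval 0.052 to 0.51, adjusted p = 0.0906). SLC25A34, SLC25A35, SLC25A43, SLC25A47, SLC25A48 and SLC25A53 lay between -0.21 and 0.10. The antisense transcript SLC25A5-AS1 had a log2 difference of -0.054 (95% interval -0.33 to 0.22). The pseudogenes SLC25A51P1 and SLC25A51P4 had -0.14 and 0.093, both at low signal.

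Related carriers were then set against each other within each array, which gives the difference between their changes and no comparison of levels. The test was a two-sided exact permutation test over 3 against 3 arrays, whose smallest possible p of 0.1 cannot reach 0.05. In 6 of 15 pairs the within-array differences of the groups did not overlap (exact p = 0.1 each, 0.25 after Benjamini-Hochberg over the 15 pairs). Among single genes 35.7% did not overlap, and 53% of those above the median signal. The share for pairs of other genes was not computed. The change of SLC25A33 exceeded that of SLC25A36 by 0.76 on the log2 scale, the widest gap of the pairs. With the probe set of largest spread for each gene that gap was 1.48. The change of SLC25A23 minus that of its relative SLC25A24 was -0.51, and that of SLC25A12 minus SLC25A13 was -0.39. The differences were 0.43 for SLC25A51 minus SLC25A52, 0.33 for SLC25A22 minus SLC25A18, both glutamate carrier genes, and 0.23 for SLC25A28 minus SLC25A37. SLC25A15 minus SLC25A2, the pair of ornithine carriers, had 0.50 with overlapping arrays (exact p = 0.2). The remaining pairs overlapped too, with differences from -0.32 for SLC25A5 minus SLC25A4 to 0.15 for SLC25A47 minus SLC25A48 and an exact p of 0.2 or more.

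**Figure D3:**
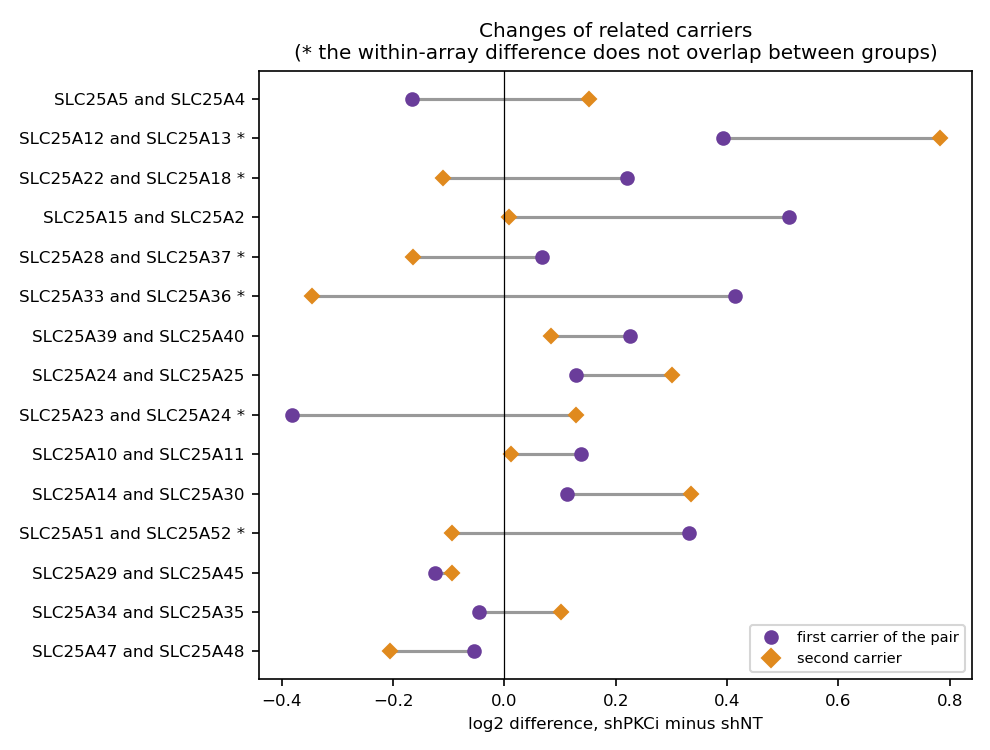
Log2 difference between shPKCi and shNT (x axis) of the first (circle) and second (diamond) carrier in 15 pairs of relatives, joined by a line; an asterisk marks the 6 pairs whose within-array difference did not overlap between the groups. The line is longest for SLC25A33 and SLC25A36, which lie on opposite sides of 0.

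Other transporters and the proteins that insert carriers into the membrane passed more often upward than downward. Of 35 such genes 33 were measured, of which 11 rose and 1 fell. That is 36.4%, where 18.5% of all genes passed (9.55% higher and 8.95% lower). Most were bright: 26 of the 33 lay above the median signal, of which 38.5% passed (9 higher and 1 lower), against 29.9% of all genes above it. Of all 9202 genes above it 1528 were higher and 1220 lower. The median log2 difference of the 33 was 0.21, against -0.016 over all genes. Without shPKCi replicate 1, 7 were higher and 1 lower, and without shPKCi replicate 2, 6 and 1. Of all genes 5.82% were higher and 5.74% lower in the first of these fits, and 5.42% and 5.69% in the second. The number of the 33 lower was 3 without shNT replicate 3 and 2 without shNT replicate 2. In those fits 6.76% and 10.6% of all genes were lower.

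Carrier import held 6 of these rises among 12 measured genes, of which 9 lay above the median signal. That is 50%, where 9.55% of all genes were higher. Of all 9202 genes above the median signal 1528 were higher. TIMM8A, a small TIM chaperone, had intensities of 47.5, 43.2 and 45.9 with shNT and 114, 73.0 and 86.2 with shPKCi and rose 1.97-fold (adjusted p = 0.00193). TOMM22, a receptor of the TOM complex, had 566, 456 and 574 with shNT and 1138, 982 and 791 with shPKCi and rose 1.81-fold (adjusted p = 0.0035). These are values of the brighter of 2 TOMM22 probe sets, with a log2 difference of 0.86. With the mean of both it was 0.75 (adjusted p = 0.00173), and what else either probe set may bind was not tested. In both genes every shPKCi array was above every shNT array, and the shPKCi arrays differed more among themselves. TIMM10B and AGK, both parts of the TIM22 route, rose by 0.45 and 0.35 on the log2 scale (adjusted p = 0.0138 and 0.0243). With shPKCi replicate 1 left out TIMM10B missed the threshold (adjusted p = 0.0673). AGK had an adjusted p of 0.0587 without shNT replicate 3, 0.0861 without shPKCi replicate 1, 0.0977 without shPKCi replicate 2 and 0.0698 without shPKCi replicate 3.

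Among inner membrane transporters of other families 5 of 13 rose and none fell, and 11 of the 13 lay above the median signal. That is 38.5%, where 9.55% of all genes were higher, and 1528 of the 9202 genes above the median signal. LETM1, an ion exchanger, had intensities of 172, 195 and 164 with shNT and 278, 269.6 and 282 with shPKCi and rose 1.57-fold (adjusted p = 0.00193). SFXN1, the sideroflexin that brings serine into mitochondria for the one-carbon pathway, had 379, 373 and 369 with shNT and 493, 501 and 492 with shPKCi. Both groups were tight and apart, with a rise of 0.41 log2 units (SE 0.088, adjusted p = 0.0107, and 0.0568 without shPKCi replicate 2). The sideroflexin genes SFXN4 and SFXN2 rose by 0.71 and 0.48 (adjusted p = 0.00448 and 0.00754). MPC1, a subunit of the mitochondrial pyruvate carrier, had intensities of 205, 192 and 208 with shNT and 285, 271 and 256 with shPKCi and rose by 0.42 (adjusted p = 0.0131). The adjusted p of MPC1 was 0.065 with shPKCi replicate 1 left out and 0.0588 with shPKCi replicate 2 left out. Its partner MPC2 had a log2 difference of 0.18 (95% interval -0.070 to 0.43).

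UCP2, an uncoupling protein of the same family under another symbol, was the 1 gene of this list that fell. Its intensities were 438, 472 and 462 with shNT and 231, 254 and 235 with shPKCi. The groups were apart by more than their spread, with a 1.91-fold fall (log2 -0.93, SE 0.094, adjusted p = 0.000178) and an adjusted p of 0.000341 to 0.00199 in fits without 1 array. UCP1 and UCP3 had log2 differences of 0.00076 and -0.036 and did not pass. The outer membrane channel gene VDAC1 had 0.14 (95% interval -0.10 to 0.38), and VDAC2 and VDAC3 had 0.20 and 0.21, none of which passed.

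**Figure D4:**
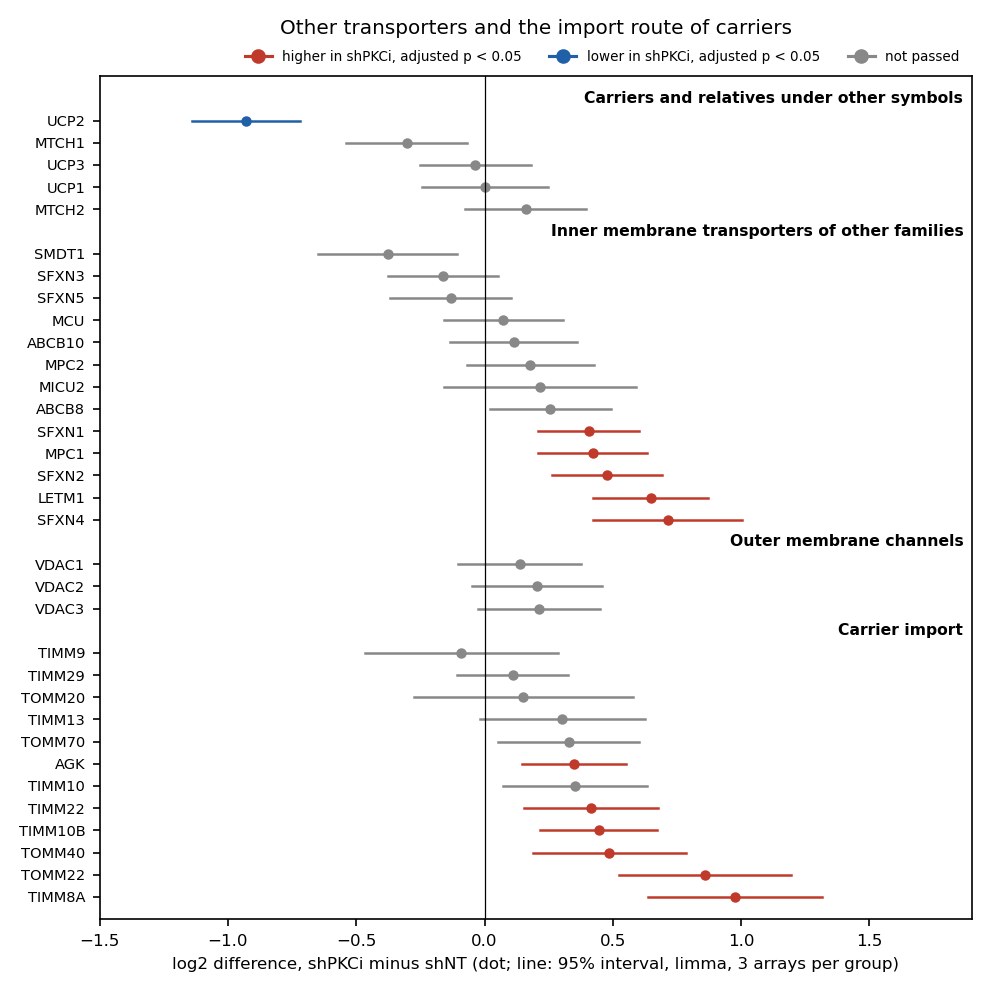
Log2 difference between shPKCi and shNT (x axis) for 33 measured genes of mitochondrial transport and carrier import; dots are limma estimates from 3 arrays per group and lines are 95% intervals. Red marks the 11 genes higher and blue the 1 gene lower at an adjusted p under 0.05; UCP2 lies at -0.93 and TIMM8A at 0.98.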

How the data were processed

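Biotin-labelled RNA of each of 6 samples went onto 1 array, and samples were grouped by their titles. The authors deposited linear intensities per probe set, for which the submitters' processing notes name RMA, a method that corrects background, normalizes by quantiles and summarises probes per probe set. No version, software or genome build is named in the sources used here. That RMA's log2 output was turned back to a linear scale was inferred from the values.

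Intensities were taken to log2. Of 32321 probe sets, 19158 had 1 gene symbol in the platform annotation, 1388 had several and 11775 were not listed; Entrez identifiers matched a RefSeq gene table for 19128, with 0 symbols changed. No filter on low values was applied, so that all 48 members were tested. The main fit of limma 3.58.1 in R 4.3.3 (lmFit, eBayes, no covariate) covered 18404 genes, with Benjamini-Hochberg adjustment and a threshold of 0.05. That fit was tested on simulated data, and intervals are 95% from it. A separate fit of the same form covered all 32321 probe sets and gave the adjusted p values stated as over all probe sets. Differences can be understated where a probe set is close to background or near saturation. No coordinates of probe sets are given, because no build was named.

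The members and gene lists were chosen with earlier results of these data known. Named were members past the threshold, members without overlap and a log2 difference of at least 0.5, 16 members chosen for their roles (of which SLC25A6 was not analysed here), up to 10 partner genes with the smallest adjusted p, and MPC1, MPC2, SFXN1, UCP2 and VDAC1; other genes were named after their values were seen. Alternatives were each array left out, a replicate block, array centring, cyclic loess, filters on signal, other choices of probe set, a trended robust variance and array weights. Promoter windows came from RefSeq (GRCh38.p14), and motif letters were searched on both strands.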

Additional observations from a re-analysis of the deposited data

How the results depend on the processing

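Of the 8 members that passed, 3 (SLC25A13, SLC25A44 and SLC25A27) passed in every alternative that tested them, and of the 10 named partner genes that passed, 6 did. No called member and no named partner gene changed direction in any alternative. PRKCI passed in all, with a log2 difference from -1.15 to -0.96. Without 1 array, 2 to 4 members were higher and 1 to 3 lower, and 6 to 12 partner genes were higher and 1 to 3 lower. In the same fits 11.1% to 21.2% of all genes passed. Among genes above the median signal, 8 of 29 members were higher and 2 lower, and 3 partner genes lower, where 21.6% of the 9202 genes tested were higher and 17.2% lower. The number of partner genes lower was 3 with cyclic loess, 3 with array weights, 2 above the lower quartile of signal and 2 with a trended robust variance. Of all genes tested 10.1%, 12.7%, 13% and 9.75% were lower in these fits, in that order. The cause was not tested.

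Signs that turned belonged to values that did not pass in either fit. SLC25A1 had 0.011 with arrays centred on their medians and 0.0066 without shNT replicate 3. SLC25A11 had -0.050 with array weights, -0.015 with cyclic loess and a range of -0.12 to 0.085 in fits without 1 array. Without 1 array SLC25A38 ranged from -0.030 to 0.10 and SLC25A20 from -0.0029 to 0.22. The difference of SLC25A39 minus SLC25A40 ranged from -0.075 to 0.39 and that of SLC25A47 minus SLC25A48 from -0.11 to 0.33; the cause was not tested.

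The sample titles link the groups only by replicate number. Deviations from the group means correlated at 0.12, -0.058 and -0.18 between samples of the same number, for replicates 1, 2 and 3. Of the shNT samples, replicate 1 correlated best with its own number in shPKCi, and replicates 2 and 3 did not. Whether samples of the same number shared a batch was not tested. With the replicate block SLC25A12 passed (adjusted p = 0.0497), SLC25A36 (0.0653) and AGK (0.0631) did not, 6 members were higher and 2 lower, and 9 and 1 partner genes. Of all genes 8.35% were higher and 7.83% lower in that fit. No detection calls were used, and levels of dim members cannot be told from background.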
